A study of Mus musculus with 6 samples.

Results

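The genes described here are 10 genes that are widely used to follow astrocytes as they mature: Aldh1l1, Slc1a2, Gja1, Gjb6, Glul, Aldoc, Sox9, Fgfr3, Agt and Ntsr2. They were chosen by name, with no threshold on a measured value, but with earlier results of these data known. All 10 were measured among the 19938 genes with a named probe set. The study measured RNA with 6 Affymetrix mouse gene arrays, hybridised to RNA from the ependymal layer of male mice, as the series title calls them. Every mouse brain carried FoxJ1-EGFP, a reporter that marks cells with FoxJ1 expression, and the EGFP-positive domains were cut out of frozen brain by laser capture. The labels give no more on the reporter or on the null allele. The genotypes were wildtype and FoxJ1 null (FoxJ1 is the transcription factor that drives formation of motile cilia), and each was sampled at postnatal days 1, 7 and 14. There was 1 array for each genotype at each age. Nothing in the labels tells if an array represents 1 animal or several. The p-values below therefore measure only the spread between these 6 arrays. In the fits with age as a factor, that spread is how the genotype difference varies over the ages. Such variation and array noise cannot be told apart with 1 array for each genotype at each age.

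Astrocytes arise from radial glia in the days around birth, divide locally, and then take up the tasks of the adult cell: clearing glutamate, sharing ions and metabolites through gap junctions, and responding to peptides and growth factors. The genes for these tasks are among those whose RNA rises as astrocytes mature, while regulators of glial fate are active earlier. The walls of the ventricles hold ependymal cells, which line the cavity, and astrocytes of the subventricular zone that lie directly beneath them.

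In the dissected layer, 8 of the 10 genes were higher at day 14 than at day 1 and the other two, Aldh1l1 and Sox9, were lower. All 10 differences passed the test, against 13.8% of all 19938 genes. The neurotensin receptor gene Ntsr2 changed by 6.13-fold and the angiotensinogen gene Agt by 4.21-fold, and the other 8 members by 1.61-fold to 2.87-fold. Between the genotypes no member passed the adjusted test (0.672% of all genes did). None passed for a difference in its straight-line slope over age (0% of all genes did). These results do not show that the genotypes were alike. The name of the list describes a rise, and for Aldh1l1 and Sox9 the values ran the other way.

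The promoters of 3 members are shown because these genes had the largest rises and a fall with age. Each run is RefSeq's sequence of GRCm38.p6 from 250 bases before a listed start of transcription to 50 bases from it, on the gene's own strand, and capitals mark motif matches. For Ntsr2 and Aldh1l1 the listed start lies a little inside the outermost edge of the annotated gene. Agt lies on the minus strand at chr8:124569657-124569956, Ntsr2 on the plus strand at chr12:16653220-16653519 and Aldh1l1 on the plus strand at chr6:90550543-90550842.
Agt: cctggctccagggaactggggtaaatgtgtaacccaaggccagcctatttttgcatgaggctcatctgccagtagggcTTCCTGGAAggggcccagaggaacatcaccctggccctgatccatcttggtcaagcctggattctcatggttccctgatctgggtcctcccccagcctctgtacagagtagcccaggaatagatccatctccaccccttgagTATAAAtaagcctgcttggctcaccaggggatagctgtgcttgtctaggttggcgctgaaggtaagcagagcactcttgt
Ntsr2: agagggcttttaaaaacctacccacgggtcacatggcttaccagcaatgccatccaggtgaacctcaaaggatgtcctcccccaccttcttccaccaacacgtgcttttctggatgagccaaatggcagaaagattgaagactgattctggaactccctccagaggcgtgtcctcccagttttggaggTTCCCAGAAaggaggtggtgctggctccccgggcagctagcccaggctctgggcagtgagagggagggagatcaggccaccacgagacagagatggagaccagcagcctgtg
Aldh1l1: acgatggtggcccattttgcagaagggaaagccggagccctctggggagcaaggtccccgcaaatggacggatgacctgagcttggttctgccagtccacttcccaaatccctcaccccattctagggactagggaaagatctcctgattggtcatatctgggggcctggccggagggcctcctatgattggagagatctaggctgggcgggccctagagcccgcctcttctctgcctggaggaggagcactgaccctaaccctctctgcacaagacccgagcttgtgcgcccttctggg
The capitals in Agt are a match to the STAT motif TTCNNNGAA at position -172 from the listed start and a match to the TATA box motif TATAAA at position -30. The capitals in Ntsr2 are a STAT match at position -62. STAT factors carry cytokine signals that promote the astrocyte fate.

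RefSeq's table held 11 promoters for 9 of the members, 2 of them each for Aldoc and Fgfr3. The Slc1a2 window and the second windows of Aldoc and Fgfr3 lie at starts inside the annotated gene. Both strands were searched. The STAT motif was present in 3 of the 11 windows, those of Agt, Ntsr2 and 1 of Aldoc, and in 8.30% of all 32851 promoters of the same length. The TATA box motif was present in 1 window (Agt) and in 13.6% of all promoters. A half-site of the nuclear factor I family, TTGGCA, was found in 1 window of Aldoc and in 14.1% of all promoters, and the RBPJ motif GTGGGAA, at which Notch signals act, in both Aldoc windows and in 6.38% of all. The forkhead motif GTAAACA, of the family to which FoxJ1 belongs, was found in 1 window of Aldoc and in 3.65% of all. Neither Sox motif searched (AACAATG, in 3.78% of all promoters, and AACAAAG, in 5.85%) was found in a window of a member. The motifs do not overlap one another in the windows shown. Base composition ran from 45.7% G and C in the Slc1a2 window to 73% in 1 of Fgfr3, with a median of 52.7% over all promoters. Agt and Slc1a2 had 1 CpG each, Ntsr2 had 5 and Aldh1l1 had 9, against a median of 7. These matches are letters in a window and were not tested for use.

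Before the results, 2 arrays went against the sex in the title. Xist, the RNA of the inactive X chromosome, had a log2 level of 12.40 for the wildtype at day 1 and 12.35 for the FoxJ1 null at day 7, while elsewhere it was 5.37 to 5.83. Eif2s3y, Kdm5d and Uty, which lie on the Y chromosome, ran the opposite way, with 4.53 to 5.21 in this pair and 8.94 to 10.72 elsewhere. Foxj1 itself was at 7.24 and 7.72 on the other wildtype arrays and at 6.89 and 6.9 on the other null arrays. The high-Xist arrays were at 7.68 (wildtype day 1) and 6.95 (null day 7). Each lay nearer to the other arrays of the genotype on its label. How samples with this pattern came into a series titled male was not tested. An exchange with other samples would change what the day 1 and day 7 values mean. The median log2 level over all probe sets was 7.72 to 7.81 on every array. The 12 ependymal markers, some of which other cells also make (Vim, Cd24a), had a mean log2 level of 8.49 to 8.64 on the wildtype arrays, and 6 of the 12 were lower in the null. Results of day 14 against day 1 and of genotype are also given without the 2 high-Xist arrays, in a fit that takes age as a straight line and so changes 2 choices together. The other intervals could not be fitted that way, with as many terms as arrays. With those 2 arrays left out only day 14 has both genotypes, so genotype differences from that fit rest largely on the straight line.

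All levels are log2 array signals, and levels of different genes are not compared because each probe set has its own response. Each age was compared with another in limma, a linear model with a variance shared across genes, with genotype as a term. The adjusted p-values are Benjamini-Hochberg values over all 19938 genes, and 0.05 was the threshold.

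**Figure D1:**
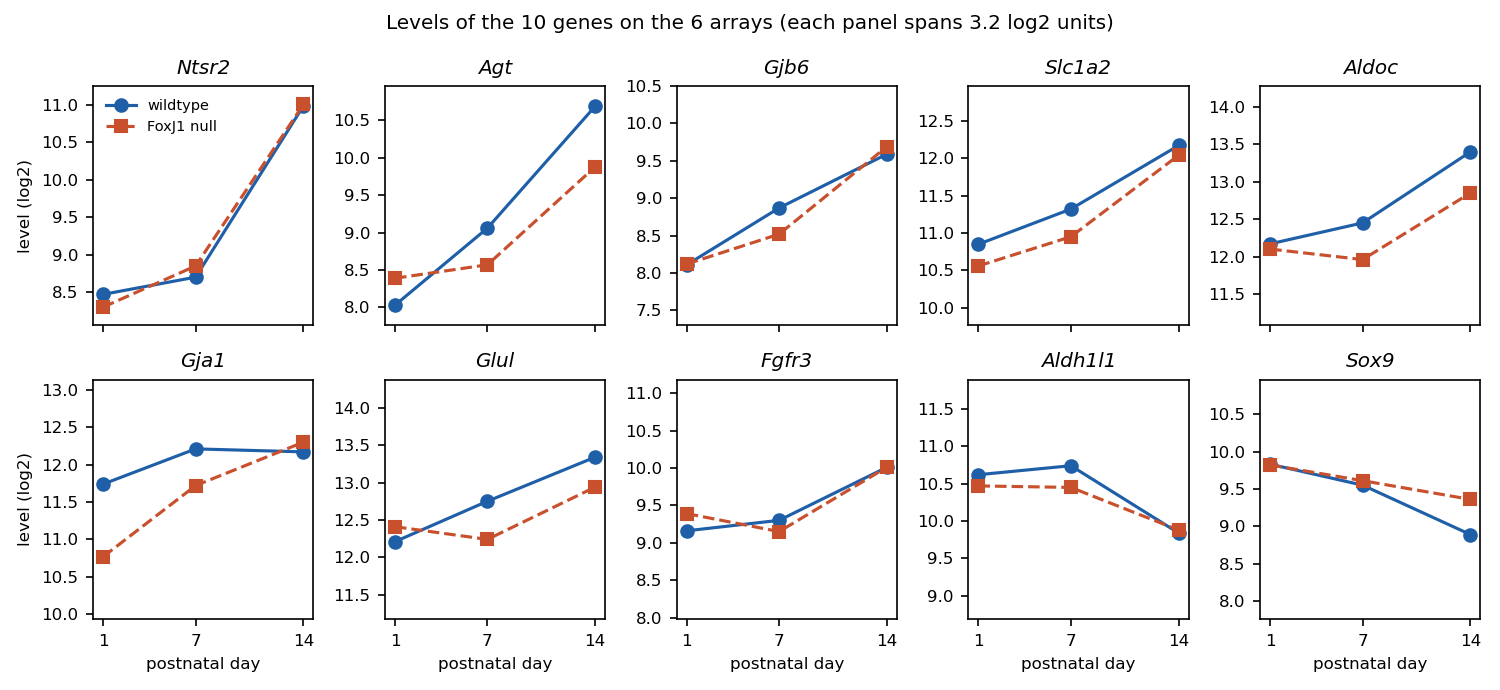
Log2 level of each of the 10 genes (vertical axes, each spanning the same number of log2 units) against postnatal day (horizontal axes), with 1 point per array, wildtype in blue circles and FoxJ1 null in red squares. Ntsr2 lies at or below 8.85 until day 7 and at 10.99 and 11.01 at day 14, while Aldh1l1 and Sox9 are lowest at day 14.

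Slc1a2 encodes the glutamate transporter that takes up most of the glutamate released in the forebrain. In the wildtype its log2 levels at days 1, 7 and 14 were 10.85, 11.32 and 12.17, and in the FoxJ1 null they were 10.56, 10.95 and 12.04. Both day 14 arrays lay above all the others. The rise from day 1 to day 14 was 1.40 (SE 0.13, 95% interval 1.12 to 1.69, limma adjusted p = 0.000231), a 2.64-fold change.

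Glul encodes glutamine synthetase, which turns the glutamate taken up into glutamine. Wildtype levels were 12.21, 12.75 and 13.34 at days 1, 7 and 14, and null levels were 12.41, 12.24 and 12.94. The null had its lowest level at day 7, while the wildtype had its lowest at day 1. Across the genotypes the rise to day 14 was 0.83 (SE 0.17, 95% interval 0.45 to 1.22, limma adjusted p = 0.0122). It was 0.51 without the wildtype day 1 array (adjusted p = 0.0604) and 0.66 with age as a straight line and the 2 high-Xist arrays left out (adjusted p = 0.0594). A second probe set of Glul, dimmer than the first, gave 10.97, 11.53 and 12.04 in the wildtype and 11.02, 11.16 and 11.96 in the null, highest at day 14 in both genotypes.

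Gja1 encodes connexin 43, the main gap junction protein of astrocytes, which ependymal cells also make. Its levels were 11.74, 12.21 and 12.17 in the wildtype and 10.77, 11.72 and 12.30 in the null. The null day 1 array was the lowest of the 6 by a wide margin, and the wildtype was no higher at day 14 than at day 7. The fitted rise from day 1 to day 14 was 0.98 (SE 0.22, 95% interval 0.49 to 1.46, limma adjusted p = 0.0158). Without the null day 1 array it was 0.58 (adjusted p = 0.0947), and without the null day 14 array 0.55 (adjusted p = 0.145). With genotype left out of the model the rise of 0.98 was not called (adjusted p = 0.0681).

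Gjb6 encodes connexin 30, which joins astrocytes and appears later than connexin 43 in development. Levels of 8.11, 8.87 and 9.59 were measured in the wildtype and of 8.12, 8.52 and 9.69 in the null. In both genotypes each age lay above the one before it. The rise was 1.52 (SE 0.14, 95% interval 1.20 to 1.84, limma adjusted p = 0.000271), a 2.87-fold change.

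Aldoc encodes aldolase C, the brain form of a glycolytic enzyme. The wildtype arrays read 12.17, 12.45 and 13.40 and the null arrays 12.10, 11.96 and 12.85. Day 14 was highest in both genotypes, and the null arrays of days 7 and 14 lay below the wildtype arrays of the same ages. The rise was 0.99 (SE 0.15, 95% interval 0.66 to 1.32, limma adjusted p = 0.00243).

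Aldh1l1 encodes 10-formyltetrahydrofolate dehydrogenase, a folate enzyme whose gene is used as a marker of astrocytes of all ages. Its levels were 10.62, 10.74 and 9.84 in the wildtype and 10.47, 10.45 and 9.88 in the null. Both day 14 arrays lay below the other 4, which were close to one another. The fall from day 1 to day 14 was -0.68 (SE 0.13, 95% interval -0.98 to -0.39, limma adjusted p = 0.00888), a 1.61-fold decrease. It was -0.55 without the wildtype day 14 array (adjusted p = 0.0938) and -0.83 with age as a straight line and the 2 high-Xist arrays left out (adjusted p = 0.063).

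Agt encodes angiotensinogen, the precursor of the angiotensin peptides, which astrocytes secrete in the brain. Levels in the wildtype were 8.03, 9.06 and 10.69, and in the null 8.39, 8.57 and 9.88. The null was above the wildtype at day 1 and below it at days 7 and 14. The rise was 2.07 (SE 0.23, 95% interval 1.56 to 2.59, limma adjusted p = 0.000584). As single array differences it was 2.66 in the wildtype and 1.49 in the null, or 6.32-fold and 2.81-fold.

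Ntsr2 encodes a receptor for the peptide neurotensin that is found on astrocytes. It was measured at 8.47, 8.70 and 10.99 in the wildtype and 8.30, 8.85 and 11.01 in the null. The arrays of days 1 and 7 ran from 8.30 to 8.85 and both day 14 arrays lay far above them. Its rise of 2.62 (SE 0.13, 95% interval 2.32 to 2.91, limma adjusted p = 9.77e-06) was the largest of the 10 genes, and it was 2.52 in the wildtype and 2.72 in the null.

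Fgfr3 encodes a receptor for fibroblast growth factors that is present from radial glia to adult astrocytes. Its levels were 9.16, 9.30 and 10.01 in the wildtype and 9.39, 9.15 and 10.01 in the null. Days 1 and 7 were close to each other and day 14 was higher in both genotypes. The rise was 0.73 (SE 0.14, 95% interval 0.43 to 1.04, limma adjusted p = 0.00715).

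Sox9 encodes a transcription factor that starts the glial programme in neural progenitors and is also present in ependymal cells. The wildtype read 9.83, 9.55 and 8.89 and the null 9.82, 9.61 and 9.36. In both genotypes the level was highest at day 1 and lowest at day 14, and the wildtype day 14 array was the lowest of the 6. The fall was -0.70 (SE 0.15, 95% interval -1.03 to -0.37, limma adjusted p = 0.0131). Without the wildtype day 14 array it was -0.47 (adjusted p = 0.168), without the wildtype day 1 array -0.56 (adjusted p = 0.0547), and with age as a straight line and the 2 high-Xist arrays left out -0.63 (adjusted p = 0.087).

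Read together, the day 1 and day 14 arrays did not overlap for any of the 10 genes, a separation that 54.9% of all genes showed (25.5% upward and 29.4% downward). The 8 rises stood against a share of 7.50% of all genes called higher, and the 2 falls against 6.29% called lower. The members' median difference was 0.99 and that of all genes was -0.01. In each of 15 alternative settings, 6 of the 10 genes passed the threshold (Slc1a2, Gjb6, Aldoc, Fgfr3, Agt and Ntsr2), and all 10 kept their sign. Without the 2 high-Xist arrays, with age as a straight line, 7 members were called higher and none lower (9.34% of all genes called). With the Xist level as a covariate 8 were called higher and 2 lower (15.5% of all genes called).

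**Figure D2:**
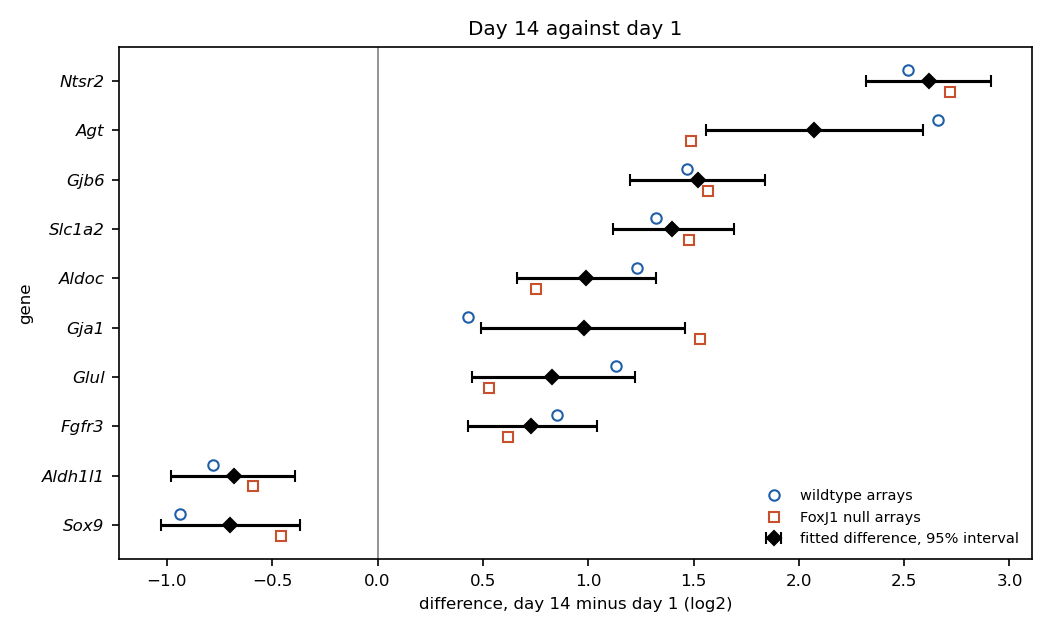
Difference in log2 level between day 14 and day 1 (horizontal axis) for each gene (vertical axis). Black diamonds with bars are the fitted difference and its 95% interval from 6 arrays, and open blue circles and red squares are the wildtype and FoxJ1 null differences from 1 array per age. Ntsr2 (2.62) and Agt (2.07) lie farthest right, and Aldh1l1 (-0.68) and Sox9 (-0.70) lie left of 0.

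In the fit every member but Gja1 had its larger difference in the second week, although on the wildtype arrays Gjb6 differed by 0.75 in the first and 0.72 in the second, and whether the intervals differ was not tested. From day 7 to day 14, 6 members rose and 1 fell, with 2.34% of all genes called higher, 1.87% lower and 4.21% in either direction. Ntsr2 rose by 2.23 (limma adjusted p = 5.73e-05), Agt by 1.47 (adjusted p = 0.00894), Slc1a2 by 0.97 (adjusted p = 0.00486), Gjb6 by 0.95 (adjusted p = 0.00798), Aldoc by 0.92 (adjusted p = 0.0102) and Fgfr3 by 0.79 (adjusted p = 0.0137). Aldh1l1 fell by 0.74 (adjusted p = 0.0161). Glul differed by 0.65 (adjusted p = 0.0721), Sox9 by -0.46 (adjusted p = 0.131) and Gja1 by 0.27 (adjusted p = 0.578), which did not pass. The members' median was 0.85 and that of all genes 0.03. The count of rises was 2 without the null day 7 array, 1 of the 2 with high Xist, where Slc1a2 and Ntsr2 stayed called. Aldh1l1 was not called without the wildtype day 7 array (-0.62, adjusted p = 0.0895) or the wildtype day 14 array (-0.61, adjusted p = 0.125).

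From day 1 to day 7 no member passed the threshold in limma, with 0.0602% of all genes called. At an unadjusted p below 0.05, 5 members differed, against 10.6% of all genes. They were Gja1 (0.71, adjusted p = 0.315), Agt (0.60, adjusted p = 0.413), Gjb6 (0.57, adjusted p = 0.222), Slc1a2 (0.43, adjusted p = 0.299) and Ntsr2 (0.39, adjusted p = 0.365). The other members lay between -0.24 for Sox9 and 0.18 for Glul. On single arrays 4 members were higher at day 7 than at day 1 in the wildtype and lower in the null, as were 28.2% of all genes (43.9% differed in sign). Gja1 was called without the wildtype day 1 array (1.11, adjusted p = 0.0107) and without either day 14 array (0.71, adjusted p = 0.0259), and Agt without the null day 1 array (1.11, adjusted p = 0.0405). The values moved the other way too, to 0.32 for Gja1 without the null day 1 array (adjusted p = 1) and to 0.10 for Agt without the wildtype day 1 array (adjusted p = 0.82). Both high-Xist arrays belong to this interval, 1 at each end, so the interval cannot be measured without them.

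Between the genotypes none of the 10 genes passed the adjusted limma test, with 0.672% of all genes called, nearly all of them lower in the null (0.667%). At an unadjusted p below 0.05, 3 members differed, against 5.92% of all genes. The difference, FoxJ1 null minus wildtype with age as a factor, was negative for 8 members and positive for Sox9 and Fgfr3. Of all genes, 45.2% had a positive difference. Among the 8, Ntsr2 stood at -0.00. The members' median was -0.19, and that of all genes was -0.01. None of the 10 genes is in the authors' deposited list of 52 probe sets.

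Of the members' intervals, 3 did not include 0. Aldoc was lower in the null at every age, with differences of -0.07, -0.49 and -0.55 at days 1, 7 and 14. Its mean difference was -0.37 (SD 0.26 over 3 ages, 95% interval -0.64 to -0.10, limma unadjusted p = 0.0123, adjusted p = 0.527). After quantile normalization it was -0.11 (adjusted p = 0.983), and without the 2 high-Xist arrays, with age as a straight line, -0.23 (adjusted p = 0.995). Slc1a2 was also lower at every age, with -0.29, -0.36 and -0.13, and its mean was -0.26 (SD 0.12, 95% interval -0.49 to -0.03, unadjusted p = 0.0311, adjusted p = 0.772). It was -0.10 with age as a straight line and the 2 high-Xist arrays left out (adjusted p = 0.999). These 2 were the only members lower in the null at all 3 ages, a pattern that 15.9% of all genes showed.

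The Gja1 difference was -0.97 and -0.49 at days 1 and 7, and 0.13 at day 14. The mean of -0.44 had a wide spread (SD 0.55 over 3 ages, 95% interval -0.84 to -0.05, limma unadjusted p = 0.0318, adjusted p = 0.772). When either day 14 array was left out it was -0.73 (adjusted p = 0.0169), a value that rests on days 1 and 7 alone, and when either day 1 array was left out it was -0.18 (adjusted p = 1). Agt differed by 0.36, -0.49 and -0.81 at the 3 ages, with a mean of -0.31 (SD 0.60, 95% interval -0.74 to 0.11, adjusted p = 0.993). When either day 1 array was left out it was -0.65 (adjusted p = 0.0316), which rests on days 7 and 14, and when either day 14 array was left out it was -0.07 (adjusted p = 1).

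The remaining members had intervals that include 0. Glul differed by 0.19, -0.51 and -0.40 at the 3 ages, with a mean of -0.24 (95% interval -0.56 to 0.08). Aldh1l1 had a mean of -0.13 (95% interval -0.37 to 0.11), Gjb6 of -0.08 (-0.34 to 0.18), Ntsr2 of -0.00 (-0.24 to 0.24), Fgfr3 of 0.03 (-0.22 to 0.27) and Sox9 of 0.17 (-0.10 to 0.44). With age as a straight line and the 2 high-Xist arrays left out, no member was called and the differences ran from -0.39 for Gja1 to 0.52 for Ntsr2, with Aldh1l1 at -0.31 and Fgfr3 at 0.22. In that fit only day 14 has arrays of both genotypes, so its differences rest largely on the straight line. On the day 14 arrays themselves Ntsr2 differed by 0.03. A p-value above the threshold does not show that the genotypes were alike. The Ntsr2 interval with all 6 arrays still holds differences of 0.24 in either direction.

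At day 7 the null was below the wildtype for 8 of the 10 genes, with a median of -0.36. Over all genes the median at day 7 was -0.06, and 36.6% of genes were higher in the null. The members' median was -0.05 on the day 1 pair of arrays and 0.01 on the day 14 pair. Each of these differences compares 1 array with 1, and the null day 7 array is 1 of the 2 with high Xist.

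**Figure D3:**
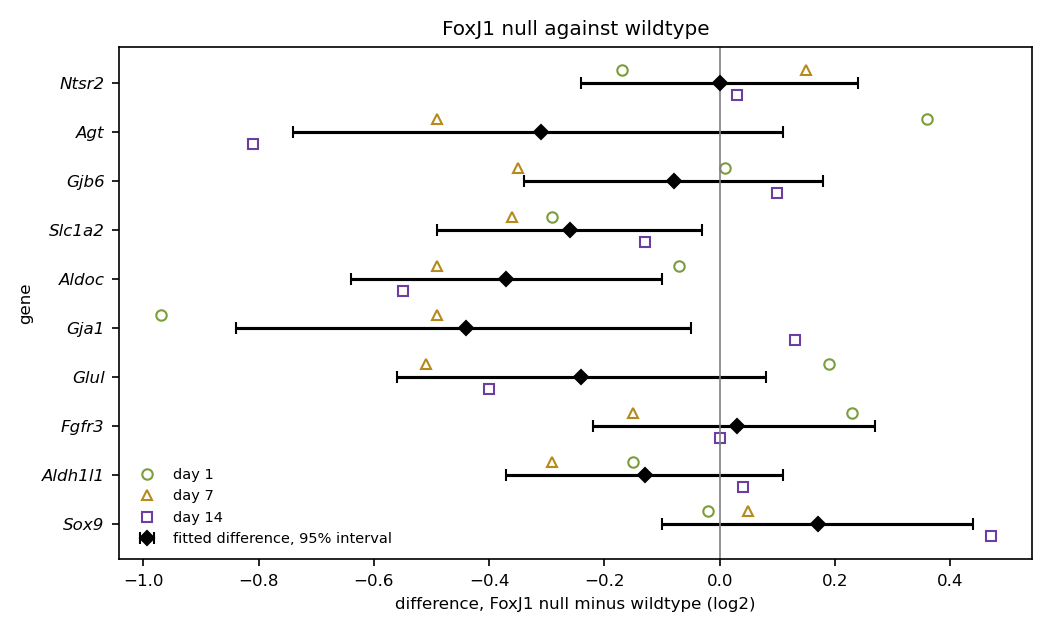
Difference in log2 level between FoxJ1 null and wildtype (horizontal axis) for each gene (vertical axis), with open symbols for the single array difference at days 1, 7 and 14 and black diamonds with bars for the fitted difference and its 95% interval. Gja1 at day 1 (-0.97) and Agt at day 14 (-0.81) lie far from 0, and the bars of Gja1, Aldoc and Slc1a2 do not reach 0.

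Whether the genotypes differed in slope over the 13 days was tested with age as a straight line in each genotype. A bend in the age course that both genotypes share counts as error in this fit. For Ntsr2, which rose mostly after day 7 in both genotypes, the SE of the slope difference was 0.67. No member was called, and no gene of all was (0% called), which does not show that the courses were the same. At an unadjusted p below 0.05, 596 genes (2.99%) and 2 members differed. The Gja1 slope was steeper in the null by 1.10 over the 13 days (95% interval 0.36 to 1.84, limma unadjusted p = 0.00802, adjusted p = 1), with single array differences of 0.43 in the wildtype and 1.53 in the null. It was 0.49 without the wildtype day 14 array and 1.65 without the null day 14 array. The Agt slope was less steep in the null by -1.15 (95% interval -2.03 to -0.28, unadjusted p = 0.0154, adjusted p = 1). It was -0.24 without the null day 1 array and -2.27 without the null day 14 array. For the other 8 members the slope difference was between -0.58 (Glul) and 0.49 (Sox9), and each interval included 0.

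Over the 6 arrays the members formed a group that moved together and a pair that moved against it. As a description across arrays that share age and genotype, Pearson r over 6 arrays was 0.98 for Gjb6 with Slc1a2 and 0.97 for Agt with Glul and for Aldoc with Glul. The pair Sox9 and Aldh1l1 had r = 0.80 with each other, and Sox9 had r = -0.97 with Agt. Gja1 moved with the rising group more loosely, with r from 0.45 (Fgfr3) to 0.81 (Slc1a2). It had r = -0.63 with Sox9 and -0.37 with Aldh1l1. Gjb6, the other connexin gene among the members, had r = 0.77 with Gja1.

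The genes around the members were then examined by role. The list of other astrocyte genes had 49 measured genes, of which 37 rose from day 1 to day 14, none fell and 12 did not pass, with a median of 0.83. Among the largest rises were Gpr37l1, a receptor of glial cells, by 2.94 (limma adjusted p = 2.42e-05), the calcium-binding protein gene S100b by 2.43 (adjusted p = 2.91e-05), the intermediate filament gene Gfap by 2.26 (adjusted p = 0.0028) and the protease gene Htra1 by 2.11 (adjusted p = 3.58e-05). The Gfap rise was unlike in the 2 genotypes on single arrays. Its levels at days 1, 7 and 14 were 8.48, 9.24 and 9.75 in the wildtype and 7.77, 9.55 and 11.02 in the null. The water channel gene Aqp4 rose by 1.91 (adjusted p = 0.000346) and the potassium channel gene Kcnj10 by 1.22 (adjusted p = 0.00121). Slc1a3, the other astrocyte glutamate transporter, had a difference of 0.08 (adjusted p = 0.775). Without the 2 high-Xist arrays 32 of the 49 were called higher and none lower.

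Every call among genes of radial glia and immature astrocytes was a fall. Of 19 measured, 7 fell, none rose and 12 did not pass, with a median of -0.37. Tnc, an extracellular matrix protein of immature glia, fell by 2.02 (limma adjusted p = 0.000321), and the intermediate filament gene Nes by 1.36 (adjusted p = 0.00774). Without the 2 high-Xist arrays 4 were called lower and 1 higher. Of 25 astrocyte fate regulators other than the members, 6 fell, none rose and 19 did not pass (3 fell without the 2 high-Xist arrays). They include the POU factor gene Pou3f3 (-0.96, adjusted p = 0.00192), the nuclear factor I genes Nfib (-0.86, adjusted p = 0.00284) and Nfix (-0.85, adjusted p = 0.00479), and the receptor gene Notch1 (-0.63, adjusted p = 0.0117). Of 10 other Sox genes, 3 fell (Sox11, Sox4 and Sox21, by 1.89, 1.57 and 0.77) and 7 did not pass.

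Among 9 other connexins and pannexins, 2 rose and 2 fell: Gjc3, a connexin of oligodendrocytes, rose by 2.80 (limma adjusted p = 2.42e-05) and Gjb1 by 0.51, while Panx1 fell by 0.77 and Gjc1 by 0.71. Among 17 other genes of glutamate and glutamine handling, 5 rose, 1 fell and 11 did not pass, and Got1, an aspartate aminotransferase, rose by 1.16 (adjusted p = 0.000514). Of 19 other glycolysis genes 8 rose, 1 fell and 10 did not pass. The neuronal enolase gene Eno2 rose by 1.62 (adjusted p = 0.000205), and Aldoa, the aldolase present in most tissues, by 0.79 (adjusted p = 0.00762).

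Of 14 other folate enzymes and carriers 4 fell, none rose and 10 did not pass, with a median of -0.22. Aldh1l2, the mitochondrial relative of Aldh1l1, fell by 0.82 (limma adjusted p = 0.0038). Of 17 other genes of the FGF pathway 2 rose and 15 did not pass, and the ligand gene Fgf1 rose by 1.53 (adjusted p = 0.000231). The other receptor genes Fgfr1 (-0.20) and Fgfr2 (0.26) did not pass. Of 10 other genes of the angiotensin and neurotensin systems 1 rose, 1 fell and 8 did not pass. The prorenin receptor gene Atp6ap2 rose by 0.60 (adjusted p = 0.019), the ligand gene Nts fell by 1.31 (adjusted p = 0.00133), and the receptor genes Agtr1a (0.15) and Ntsr1 (-0.06) did not pass. Without the 2 high-Xist arrays, the rises among connexins were 1, among glutamate and glutamine genes 3, among glycolysis genes 5 among FGF genes 1 and among angiotensin and neurotensin genes 0, and 2 folate enzymes fell.

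Markers of several other cell types moved with age as well. All 9 measured oligodendrocyte markers rose, by a median of 3.08, and their mean log2 level was 7.36 to 7.67 on the arrays of days 1 and 7 and 10.78 and 10.31 at day 14. Of 10 microglia markers 7 rose and none fell (mean level 8.44 to 8.50 at day 1, 8.95 and 9.72 at day 14), and of 9 neuron markers 5 rose and 1 fell (10.95 to 11.08 at day 1, 11.49 to 11.65 at day 14). All 9 proliferation markers fell (8.41 to 8.92 at day 1, 7.46 to 7.49 at day 14), as did 8 of 10 neuroblast markers (11.35 to 11.37 at day 1, 10.41 to 10.64 at day 14). The neuroblast list also had 1 rise, that of Gad1, which is among the neuron markers too. Other lists had few calls. Of 9 endothelial markers 1 rose and 8 did not pass (median 0.28). Of 9 choroid plexus markers 1 fell and 8 did not pass (median 0.03). Of 12 ependymal markers 1 rose, S100b, and 1 fell, Cd24a. S100b is also in the list of other astrocyte genes, and Cd24a is also in the neuroblast list. With the 2 high-Xist arrays left out, 9 oligodendrocyte, 8 microglia and 4 neuron markers were called higher, and 8 proliferation and 8 neuroblast markers lower. Array values have no true 0, so no marker could be called absent. The part of these cell types in the members' changes was not tested, and in such tissue a change in the number of cells of a type cannot be told apart from a change in RNA per cell.

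**Figure D4:**
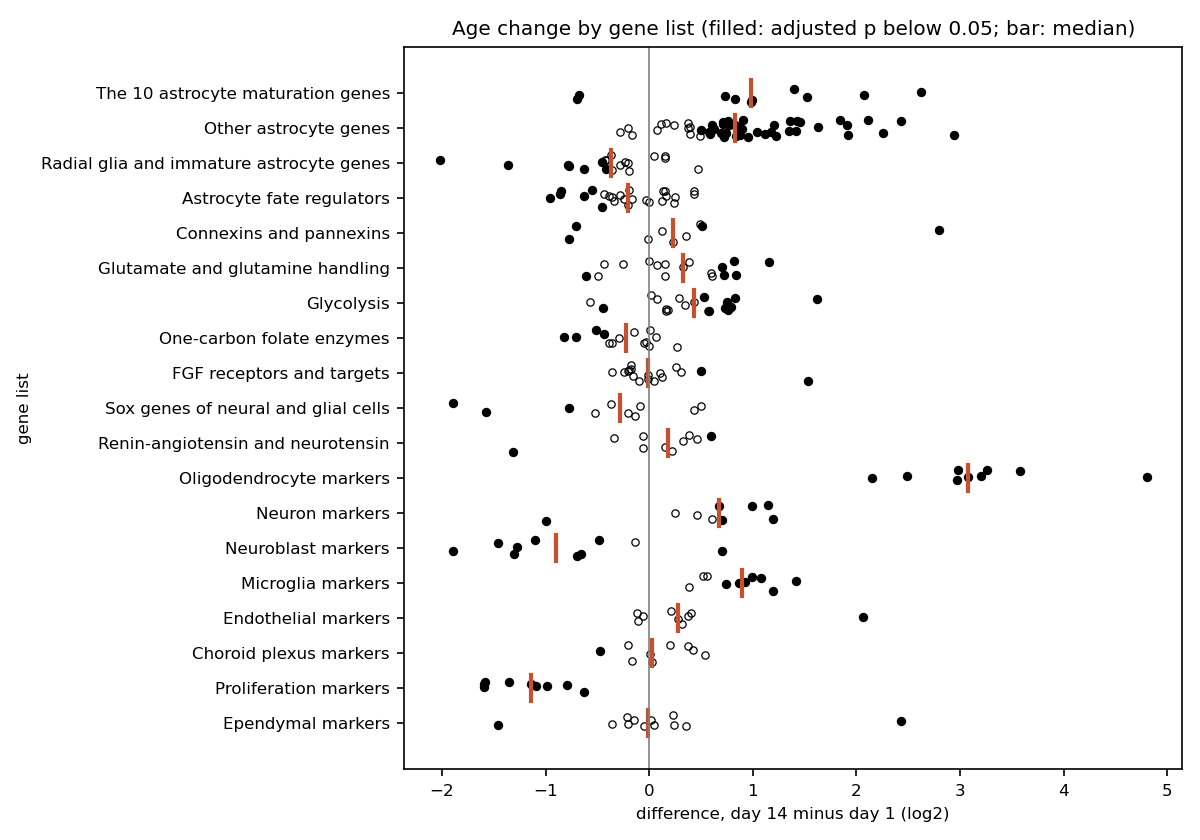
Difference in log2 level between day 14 and day 1 (horizontal axis) for the 10 members and for the genes of 18 lists other than the members (vertical axis), with 1 dot per gene, filled where the adjusted p was below 0.05, and a red bar at each median. Oligodendrocyte markers lie farthest right (median 3.08), other astrocyte genes lie mostly right of 0 (median 0.83), and proliferation markers lie left (median -1.14).

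Between the genotypes these lists showed few calls. None of the other astrocyte genes passed, and 9 of 49 had a positive difference, with a median of -0.12. Of all genes, 45.2% had a positive difference. The median was -0.22 for glycolysis genes, -0.27 for neuron markers, -0.19 for oligodendrocyte markers and 0.25 for microglia markers, of which all 10 were higher in the null and none passed. Ependymal markers had 6 of 12 lower (median -0.78), among them Tmem212 by -1.73 (limma adjusted p = 0.00228), and choroid plexus markers 3 of 9 (median -0.75). Their part in the members' genotype differences was not tested.

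The genes whose 6 levels were most like the members' mean profile were ranked by Pearson r among 1426 genes with a range of at least 1. The mean profile, each member taken relative to its own mean, was -0.37, 0.00 and 0.62 in the wildtype and -0.46, -0.29 and 0.50 in the null. The closest were Inpp5j (r = 0.999), Pld3 (0.998), Vipr2, Hdac11 and Scube1 (0.996 each), Gprc5b, Map6d1, Septin4 and Padi2 (0.995 each) and Map2k1 (0.994). Inpp5j, a phosphoinositide phosphatase gene, read 8.82, 9.63 and 10.82 in the wildtype and 8.55, 8.93 and 10.61 in the null. High r was common among these genes: 372 of the 1426 had r of at least 0.9, a lower bar than the values just named. The share holds only for genes already picked for a wide range over the 6 arrays. The members' own r with this profile, to which each contributes, ran from 0.996 for Slc1a2 through 0.759 for Gja1 to -0.831 for Aldh1l1 and -0.921 for Sox9.

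For single members the closest genes differed. Slc1a2 was most like Map2k1 (r = 0.999), and Gja1 was most like Hsdl2 (0.991) and Maob (0.990), the monoamine oxidase found in astrocytes. Gjb6 was most like Plpp4 and Cyp2j9 (0.998 each), Glul like Tuba8 (0.989), Aldoc like Cckbr (0.994) and Fgfr3 like Csrp1 (0.995). Agt was most like Atp6v1g2 (0.997) and Ntsr2 like Rasd1 (0.997) and Lncpint (0.995). Sox9 was most like Cxcr4 (0.993) and Neurod1 (0.981), and Aldh1l1 like Nlrp5-ps (0.977) and Pcdh18 (0.975). That these genes fall with age follows from picking them by r.

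**Figure D5:**
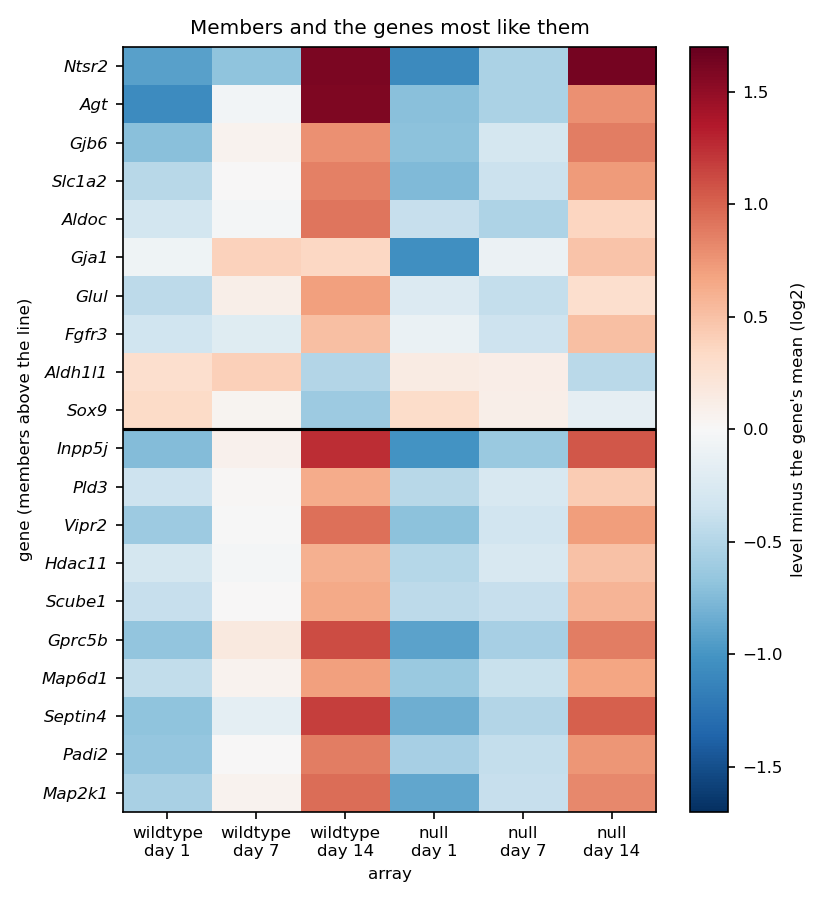
Log2 level of each gene minus its own mean over the 6 arrays (colour, red above and blue below the mean), for the 10 members above the line and the 10 genes most like their mean profile below it, with 1 column per array. The day 14 columns are red for all genes but Aldh1l1 and Sox9, and the null day 1 cell of Gja1 is among the darkest blue.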

How the data were processed

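RNA from 6 laser-captured samples was measured on 6 Affymetrix arrays, 1 per genotype and age. Per the submitters' processing notes the arrays were processed with RMA, and the deposited table holds log2 levels of 35557 probe sets, used with no further normalization. The authors also deposited a list of 52 probe sets with linear intensity values, equal to 2 raised to the log2 levels (largest gap 4.9e-06 on the log2 scale), used only to look for the members. The genome build and the software version are not given in the sources used here. GEO's platform annotation gives 1 symbol to 21789 probe sets, several to 1621 and none to 12147. The brightest single-symbol probe set stood for each of 19938 genes, and 999 genes had over 1.

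Levels were fitted in limma 3.58.1 under R 4.3.3 with genotype and age as factors, leaving 2 residual degrees of freedom and 7.51 from the prior, and with genotype, day and their product for the slopes. Tests were 2-sided with Benjamini-Hochberg adjustment. They were also run on simulated data with added changes, and the outcome is not reported here. The number of arrays limits the precision. In each gene list, up to 4 genes with the largest age difference and up to 3 with the largest genotype difference could be named. Genes of most similar pattern are the 10 with the highest r, and 2 per member. Aqp4, Kcnj10, Slc1a3, Fgfr1, Fgfr2, Agtr1a and Ntsr1 were named outside this rule, after their values were seen, as relatives or markers. The members and lists were chosen with earlier results of these data known. Alternatives changed the normalization, filter, probe set choice, prior, age term and arrays. List counts without the 2 high-Xist arrays, or with Xist as a covariate, were added after seeing the data.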

Additional observations from a re-analysis of the deposited data

Results flagged for a closer look

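In 4 of the genes the day 7 array was above the day 1 array in the wildtype and below it in the FoxJ1 null. The wildtype and null differences were 0.13 and -0.02 for Aldh1l1, 0.53 and -0.17 for Glul, 0.28 and -0.13 for Aldoc, and 0.14 and -0.24 for Fgfr3. Gja1 differed in sign from day 7 to day 14, by -0.05 in the wildtype and 0.58 in the null. Each is a difference of 1 array from 1, and the difference between the genotypes was not tested. Of all genes, 43.9% differed in sign from day 1 to day 7, and 28.2% were higher in the wildtype and lower in the null. Both high-Xist arrays, wildtype day 1 and null day 7, lie in that interval.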

How the results depend on the processing

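From day 1 to day 14 all members kept their sign in every alternative run. The falling members called were 0 with age linear and the 2 high-Xist arrays out, and 0 to 2 with single arrays left out (0 without the wildtype day 14 array), and genes called were 1344 (without the null day 14 array) to 3255. An array left out leaves its age with 1 array, taken to vary like the others. From day 7 to day 14, members called higher were 2 (without the null day 7 array) to 7, called lower 0 to 1, genes called 291 to 1587, and Gja1 was -0.17 to 0.70. Glul was called in 5 of 13 alternatives. From day 1 to day 7, genes called were 6 after quantile normalization, 67 after median centring and 0 (without the wildtype day 7 array) to 456 (without the wildtype day 1 array) with single arrays left out. Members called higher were then 0 to 1, and Aldh1l1 ranged from -0.07 to 0.17, Glul from -0.14 to 0.51, Aldoc from -0.15 to 0.30 and Fgfr3 from -0.20 to 0.10. Between genotypes, genes called were 61 without the dimmest genes, 66 with age linear and those 2 arrays out, and 45 without age. The sign turned for Glul (0.07) and Ntsr2 (0.06) after quantile normalization, Ntsr2 (0.03) after centring, and Gjb6 (0.03) and Ntsr2 (0.52) with age linear and those 2 arrays out. With single arrays left out Gjb6 ranged from -0.17 to 0.06, Fgfr3 from -0.07 to 0.11 and Ntsr2 from -0.07 to 0.09, and members called lower were 0 to 1. The slope difference turned for Glul (0.08) and Aldoc (0.06) after quantile normalization, Fgfr3 (0.05) with the Xist covariate and Gjb6 (-0.04) with log2 of day. With single arrays left out it ranged from -0.87 to 1.08 for Aldh1l1, -0.46 to 0.69 for Slc1a2, -0.62 to 0.71 for Gjb6, -1.50 to 0.17 for Glul, -1.53 to 0.40 for Aldoc, -1.38 to 0.74 for Fgfr3 and -1.49 to 2.26 for Ntsr2, and genes called were 0 to 9. The causes were not tested. Age pairs the genotypes' arrays and is a factor in the fits of the report other than the slopes.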
